A study of Mus musculus with 4 samples.

Results

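Collagen genes were examined in cells of 4TO7, a mammary carcinoma line of the mouse. The cells were recovered from tumors resistant to an antibody against PD-L1, the checkpoint ligand that restrains T cells, and from control tumors. The members were the protein-coding genes whose symbol reads Col, a number, a and a number, a rule on names alone, although collagens were taken up with earlier results of these data known. They numbered 44 of the 55385 genes in the deposited table, and 30 of the 44 reached the filter for testing, a mean normalized count of 10 across the libraries. A normalized count is the number of reads of a gene in a library divided by the authors' size factor for that library.

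Bulk RNA came from 4TO7 cells of 2 resistant tumor samples (IRT1 and IRT2, here resistant 1 and 2) and 2 control tumor samples (IRTC1 and IRTC2, here control 1 and 2), all in the Balb/c strain. The treatment label of all 4 reads Untreated, whereas the treatment protocol of all 4 names anti-PD-L1 in vivo, so what the control tumors received is not settled by the labels. RNA was taken after tumors had been broken up with enzymes (dispase, DNase, collagenase and hyaluronidase) and the cells harvested in DMEM, and everything shown rests on 1 cell line. The design text speaks of biological replicates and does not name separate animals. The p-values therefore describe only how these libraries spread. The libraries held 45666470 to 49592054 counted reads.

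Collagens are extracellular proteins in which 3 chains wind into a triple helix, either as copies of 1 chain or as a mixture of related chains. Fibrillar collagens build the cables of connective tissue, type IV collagen forms the sheet of the basement membrane on which epithelial cells sit, FACIT collagens attach to fibrils, network-forming types assemble into lattices or beaded filaments, and transmembrane collagens stay anchored in the cell surface. In carcinomas most fibrillar collagen is made by fibroblasts, while carcinoma cells themselves commonly make basement membrane collagens.

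The cells carried a basement membrane, network and FACIT repertoire and almost no type I or type III collagen transcript. Collagen genes took 0.365% and 0.392% of the counted reads in resistant 1 and 2 and 0.384% and 0.408% in control 1 and 2, so the groups overlapped. Col18a1, the most abundant member, itself lay higher in both resistant libraries. Without it, the shares were 0.274% and 0.294% in resistant and 0.310% and 0.334% in control cells and no longer overlapped. Among all tested genes, taken singly, the groups did not overlap in 56.7%. With Col18a1 included, the exact binomial 95% interval of the lowest share, 0.365% in resistant 1, was 0.363% to 0.367%. Such intervals cover counting error only, because reads amplified by PCR are not independent molecules. Compared per length, as reads scaled to exon length and library depth (RPKM), 7 genes stood above all others: Col18a1, Col4a5, Col4a1, Col8a1, Col4a2, Col16a1 and Col6a1. Each of these 7 lay between 40.7 and 140 RPKM in every library, and no other gene exceeded the 18.7 of Col6a3 in resistant 2. Together the 7 held 86.9% and 86.2% of the collagen reads in resistant 1 and 2 and 92.5% and 94.0% in control 1 and 2. Within the leading group, neighbours in the order by mean were not separated beyond their spread: Col8a1 ranged from 40.7 to 94.9 RPKM, across the ranges of Col4a2 (42.6 to 59.4), Col16a1 (42.9 to 61.4) and Col6a1 (42.3 to 51.1).

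The comparison of resistant with control cells asked which collagen transcripts differ between them. In limma, with Benjamini-Hochberg adjustment over all 14238 tested genes and a threshold of 0.05, 5 collagen genes rose and 1 fell. Col6a3, Col5a1, Col6a2, Col2a1 and Col9a2 rose, and Col4a1 fell. Over all tested genes, 5.32% rose and 4.73% fell, or 10.1% in all, against 6 of 30 collagen genes. The median log2 fold change of the 30 was 0.12, beside 0.00 over all tested genes, and 18 values were positive and 12 negative. Both resistant libraries lay on 1 side of both controls for 14 of the 30 collagen genes, which is 46.7%, below the 56.7% of all tested genes. In bulk samples, fewer cells of a type and less RNA per cell cannot be told apart. Of the 6 calls, those of Col5a1 and Col6a3 were made in all 13 alternatives fitted per gene, and each of the other 4 ended in at least 1 of them. Without control replicate 2, which differed from control 1 in several collagen genes described further on, 10 collagen genes rose and 3 fell, and without control replicate 1 the numbers were 11 and 5. Without resistant replicate 1 there were 3 and 0, and without resistant replicate 2 there were 2 and 0. With 1 control library, the resistant pair alone supplies the spread.

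**Figure D1:**
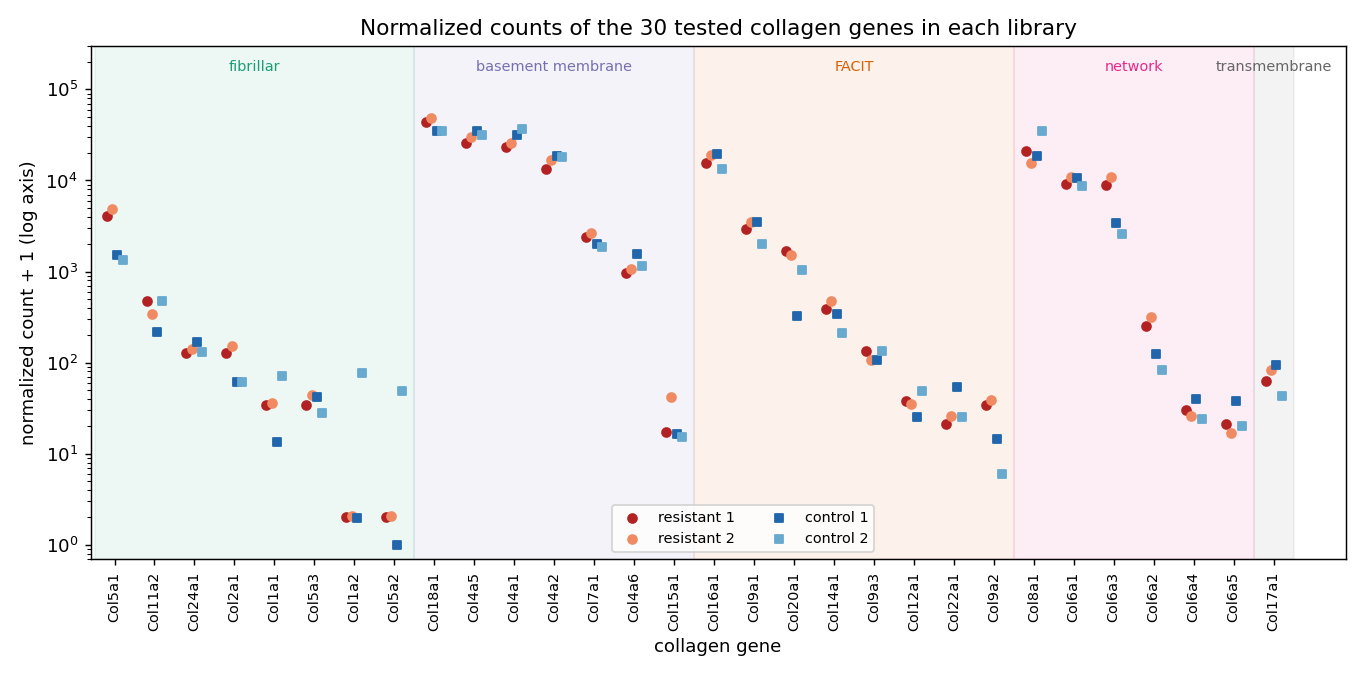
Normalized counts plus 1 on a log axis for the 30 tested collagen genes, grouped by class, with 1 point per library (circles resistant, squares control). Col5a1, Col6a3 and Col6a2 are among the 10 genes with both circles above both squares, a pattern of 28.4% of all tested genes. In Col1a2 and Col5a2 control 2 lies alone at 76.7 and 47.4 normalized counts.

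**Figure D2:**
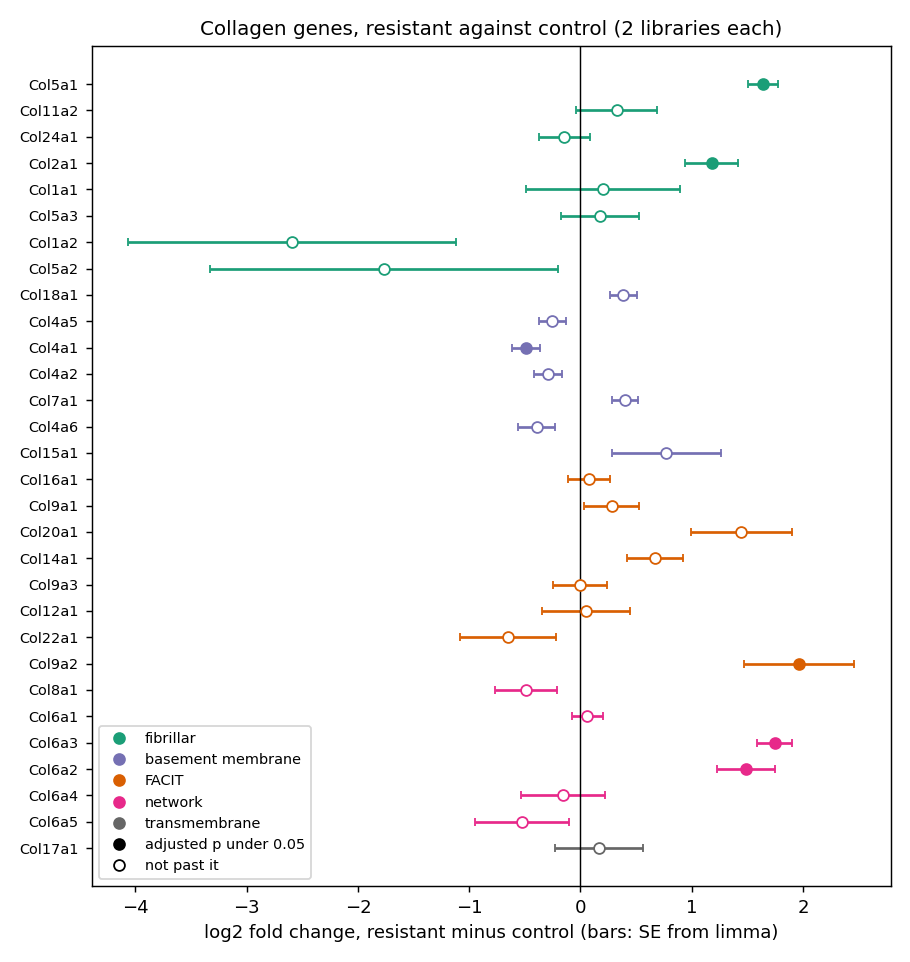
Log2 fold changes, resistant minus control, with standard errors from limma (2 libraries per group), coloured by class. Filled points passed an adjusted p of 0.05: 5 to the right of 0 and 1, Col4a1, to the left.

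Type VI collagen, which forms beaded filaments around cells from the chains of Col6a1, Col6a2 and Col6a3, held the gene with the largest rise among abundant members. Col6a3 (ENSMUSG00000048126.16, chr1:90765923-90843971, GRCm38) had 8981 and 10965 normalized counts in resistant 1 and 2 and 3380 and 2591 in control 1 and 2. Its resistant libraries lay far above both controls, and its log2 fold change was 1.75 ± 0.16 (SE, adjusted p = 0.000997), or 3.35-fold. Col6a2 (ENSMUSG00000020241.13, chr10:76595762-76623630), the chain beside Col6a1 on chromosome 10, had 255 and 317 normalized counts in resistant and 124 and 81.7 in control cells. It rose by a log2 fold change of 1.49 ± 0.26 (adjusted p = 0.0143), a call that ended without resistant replicate 2 (adjusted p = 0.129) and with no filter on low values (adjusted p = 0.0861).

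Col6a1 (ENSMUSG00000001119.7, chr10:76708792-76726168) did not pass. It had 9253 and 10799 normalized counts in resistant and 10659 and 8630 in control cells, with overlapping groups and a log2 fold change of 0.06 ± 0.14 (adjusted p = 0.829), whose sign turned without resistant replicate 2 or without control replicate 2. The per-length ratio of Col6a3 to Col6a1 was thus 0.355 and 0.372 in resistant cells and 0.116 and 0.110 in control cells. Col6a2 itself was scarce per length, at 0.639 and 0.778 RPKM in resistant and 0.312 and 0.211 in control cells, where Col6a1 had 44.1 and 50.3 and then 51.1 and 42.3. The chains of the neighbouring cluster on chromosome 9, which can take the place of the Col6a3 chain, were low: Col6a4 had 23.2 to 39.4 and Col6a5 16.1 to 36.5 normalized counts over the 4 libraries. Col6a6 had 8 and 5 reads in the resistant libraries and 0 in both controls, under the filter.

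**Figure D3:**
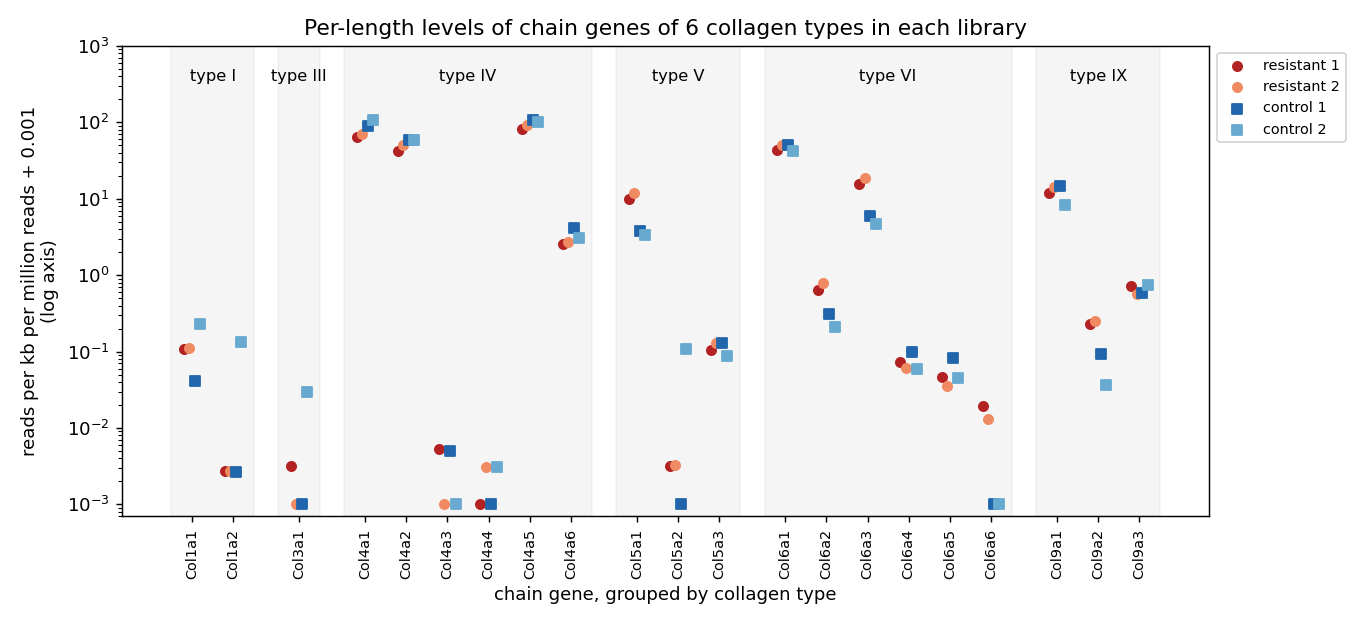
RPKM plus 0.001 on a log axis for the chains of types I, III, IV, V, VI and IX, with 1 point per library. Col6a1 and Col6a2 differ by over an order of magnitude in every library, Col5a2 lies far below Col5a1, and the Col1a2, Col3a1 and Col5a2 points of control 2 stand above those of the other libraries.

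The upstream sequences of Col5a1, Col6a3 and Col6a2, which rose, and of Col6a1, which did not pass, are shown because Col6a2 and Col6a1 are neighbouring collagen genes on the same strand, 85.2 kb apart, with different fold changes. Of the other genes that rose, Col2a1 and Col9a2, no sequence is shown. The sequences are RefSeq's, on GRCm38.p6, 5′ to 3′ on the gene's strand, ending before the first base that any GENCODE exon covers. For Col6a1 this left 126 bases and for the other genes 250. Capitals mark GGGCGG, the GC box, on either strand. Positions are chr2:27886175-27886424 (plus strand) for Col5a1, chr1:90843972-90844221 (minus) for Col6a3, chr10:76623631-76623880 (minus) for Col6a2 and chr10:76726169-76726294 (minus) for Col6a1.
Col5a1: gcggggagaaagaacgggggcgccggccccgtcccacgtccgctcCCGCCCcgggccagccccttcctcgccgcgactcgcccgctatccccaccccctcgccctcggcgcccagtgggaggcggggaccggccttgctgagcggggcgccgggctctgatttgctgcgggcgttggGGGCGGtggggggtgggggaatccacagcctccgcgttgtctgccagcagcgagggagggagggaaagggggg
Col6a3: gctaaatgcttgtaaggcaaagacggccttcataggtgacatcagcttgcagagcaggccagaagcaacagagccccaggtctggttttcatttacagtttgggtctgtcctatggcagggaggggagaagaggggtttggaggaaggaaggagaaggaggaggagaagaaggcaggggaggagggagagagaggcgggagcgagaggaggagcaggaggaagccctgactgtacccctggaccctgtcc
Col6a2: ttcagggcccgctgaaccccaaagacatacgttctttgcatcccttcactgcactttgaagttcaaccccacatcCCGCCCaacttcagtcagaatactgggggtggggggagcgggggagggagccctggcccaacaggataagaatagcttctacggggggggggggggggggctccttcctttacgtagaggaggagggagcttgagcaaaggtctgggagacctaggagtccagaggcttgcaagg
Col6a1: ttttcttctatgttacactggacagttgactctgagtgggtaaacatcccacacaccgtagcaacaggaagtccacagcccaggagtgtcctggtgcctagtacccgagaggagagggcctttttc
GGGCGG was found 2 times in the Col5a1 window, 1 time in that of Col6a2 and 0 times in those of Col6a3 and Col6a1. Of 32851 RefSeq promoter windows, 32.7% held it in the same 250 bases and 13.5% in the 126 bases used for Col6a1. On both strands, 3 more motifs were searched, and none of the 4 windows held any of them. The CCAAT box, spelled as in its name, occurs in 33.8% of all 250-base windows and 16.9% of the 126-base ones. The TATA box, searched as TATAA, occurs in 22.8% and 12.8%. The AP-1 site, searched as TGANTCA, occurs in 6.75% and 3.24%. In these windows 0 bases belonged to more than 1 motif.

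Type V collagen is a fibrillar type that co-assembles with type I and helps to start fibrils, usually from chains of Col5a1 and Col5a2. Col5a1 (ENSMUSG00000026837.16, chr2:27886425-28039514) had 4047 and 4919 normalized counts in resistant and 1534 and 1336 in control cells. The groups were well apart, and the log2 fold change was 1.64 ± 0.14 (adjusted p = 0.000795), or 3.11-fold. Its usual partner was nearly missing: Col5a2 had 1 read in each resistant library, 0 in control 1 and 47 in control 2. Col5a3, which can replace a chain in the trimer, had 33.6 and 42.9 normalized counts in resistant and 41.3 and 27.2 in control cells, with overlapping groups (log2 fold change 0.17 ± 0.35, adjusted p = 0.797). Per length, Col5a1 exceeded Col5a3 by 96.5 and 91.9 times in resistant and 29.8 and 39.4 times in control cells.

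Col2a1 (ENSMUSG00000022483.17, chr15:97975602-98004695), the chain of cartilage collagen type II, rose at a low level. It had 127 and 150 normalized counts in resistant and 60.5 in each control library, a log2 fold change of 1.18 ± 0.24 (adjusted p = 0.024), but without resistant replicate 1 or 2 its adjusted p was 0.16 or 0.281. Col11a2, a chain of the type XI collagen that accompanies type II in cartilage, had 479 and 338 against 214 and 480 normalized counts, with overlapping groups and a log2 fold change of 0.33 ± 0.36 (adjusted p = 0.618), which came to 0.91 against control 1 alone and to -0.25 against control 2 alone. Col11a1 had 2 to 10 reads per library, under the filter. Beside these genes, the cartilage proteoglycan Acan had at most 3.06 normalized counts and the matrilin Matn1 had 0 reads in all libraries, while Sox9, a transcription factor of cartilage that carcinoma cells also use, stood at 13653 to 16182.

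Of the fibrillar collagens that fibroblasts make in bulk, Col1a2 and Col3a1 were close to 0 in 3 of the 4 libraries, and Col1a1 was low in all 4. Col1a2, the second chain of type I, had 1 read in resistant 1, resistant 2 and control 1 and 76 reads in control 2 (ENSMUSG00000029661.16, chr6:4504814-4541544). Col3a1 had 1, 0, 0 and 13 reads in the same order. Col1a1 had 33.6 and 35.4 normalized counts in resistant cells and 12.5 and 69.6 in control 1 and 2. Thus control 2 was highest for Col1a1, Col1a2, Col3a1 and Col5a2. Limma did not call the tested ones, Col1a1 (0.20 ± 0.69, adjusted p = 0.886), Col1a2 (-2.59 ± 1.47, adjusted p = 0.311) and Col5a2 (-1.77 ± 1.56, adjusted p = 0.521), and all values depend on which control is used. Without control 2 the log2 fold change of Col1a1 was 1.40, that of Col1a2 0.06 and that of Col5a2 1.03. Against control 2 alone they were -0.99, -5.25 and -4.56. Single controls gave calls in both directions: Col1a1 was called higher against control 1 alone (adjusted p = 0.00923) and lower against control 2 alone (adjusted p = 0.0358). Col1a2 and Col5a2 were called lower against control 2 alone (adjusted p = 2.98e-12 and 1.91e-08). Col1a2 was also called lower with a replicate block (limma adjusted p = 0.0488) and with a crossed replicate block. No label pairs the samples, and the crossed pairing was chosen after seeing the data, so neither block adds support to that call. Beside these genes, the fibroblast surface protein Thy1 had 10.1 normalized counts in control 2 and 0 elsewhere, while Lum had 0 to 1.92 and Dpt 0. The proteoglycan Dcn fell, from 763 and 483 in control 1 and 2 to 163 and 143 in resistant 1 and 2 (-1.99 ± 0.24, limma adjusted p = 0.00343). It was the 1 call among the 3 fibroblast markers tested, beside 10.1% of all tested genes. The summed level of the 8 fibroblast markers, most of it from Pdgfra at 5766 to 8504, was 7984 and 9517 in resistant and 10143 and 6760 in control cells. Their part in the values of control 2 was not tested. Col24a1, a minor fibrillar chain, did not pass (-0.15 ± 0.23), and Col27a1 had 1 to 4 reads per library.

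Of the 7 tested genes of the basement membrane class 1 passed the test, beside 10.1% of all tested genes. It was Col4a1, which fell. In all 7 the libraries of the groups did not overlap: Col4a1, Col4a2, Col4a5 and Col4a6 were on the lower side, and Col18a1, Col7a1 and Col15a1 on the higher side. Over all tested genes 56.7% did not overlap, 28.4% higher and 28.3% lower in resistant cells. Col4a1 (ENSMUSG00000031502.11, chr8:11198423-11312826), a chain of the ubiquitous type IV trimer, had 23173 and 25640 normalized counts in resistant and 31957 and 36866 in control cells. It fell by 0.49 ± 0.13 on the log2 scale (adjusted p = 0.0496), just inside the threshold. The call ended under 7 of the 13 alternatives, in which the log2 fold change stayed between -0.57 and -0.42.

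Col4a2, which supplies the other chain of that trimer, had 13514 and 16627 normalized counts in resistant and 18344 and 18323 in control cells (-0.29 ± 0.13, adjusted p = 0.198). Col4a1 and Col4a2 are transcribed in opposite directions and overlap by 22 bases at their start sites on chromosome 8. Their per-length ratio was 1.52 and 1.37 in resistant and 1.54 and 1.78 in control cells. Col4a4 and Col4a3 on chromosome 1 are also transcribed in opposite directions, with starts 72 bases apart. So are Col4a6 and Col4a5 on chromosome X, whose starts are 1309 bases apart and which do not overlap. Col4a5 had 26099 and 30015 against 34818 and 31912 normalized counts (-0.25 ± 0.12, adjusted p = 0.247), and Col4a6 had 973 and 1060 against 1554 and 1148 (-0.39 ± 0.17, adjusted p = 0.183). Per length Col4a5 exceeded Col4a6 by 26.6 to 33.6 times, with no separation of the groups. The chains that join Col4a5 in kidney and lung, Col4a3 and Col4a4, had at most 2 reads in any library. All type IV chains together took 0.133% and 0.150% of the counted reads in resistant cells and 0.182% and 0.189% in control cells.

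Col18a1 (ENSMUSG00000001435.15, chr10:77052178-77166548), whose protein carries heparan sulfate and releases the fragment endostatin, had the highest mean per length of all collagens. It had 43381 and 47986 normalized counts in resistant and 35289 and 34595 in control cells (0.38 ± 0.12, adjusted p = 0.0879). Col7a1, which forms the fibrils that anchor epithelium to the tissue beneath, had 2399 and 2665 against 1990 and 1845 (0.40 ± 0.12, adjusted p = 0.0763). Neither passed, though both passed when either control library was left out. Col15a1, the other multiplexin, was low at 16.3 and 40.8 against 15.4 and 14.1 normalized counts (0.77 ± 0.49, adjusted p = 0.359).

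Among the FACIT genes, 1 of 8 tested was called, or 12.5%, near the 10.1% of all tested genes. Several values turned on the control libraries. Col9a2 (ENSMUSG00000028626.5, chr4:121039385-121055322), a chain of type IX collagen, had 33 and 35 reads in resistant and 14 and 5 reads in control cells. It rose by a log2 fold change of 1.97 ± 0.49 (adjusted p = 0.0472), and the call ended without either resistant library and with no filter on low values. Its partner chains did not pass. Col9a1 had 2922 and 3536 against 3536 and 1984 normalized counts (0.28 ± 0.25, adjusted p = 0.523), turning to -0.14 without control replicate 2, and Col9a3 had 132 and 106 against 107 and 133 (-0.01 ± 0.24, adjusted p = 0.991). In Col9a3, 6.07% of the exon length is shared with Tcfl5 on the opposite strand.

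Col20a1 had the largest rise that did not pass. It had 1698 and 1503 normalized counts in resistant cells, 327 in control 1 and 1053 in control 2 (1.44 ± 0.45, adjusted p = 0.0927). Against control 1 alone the log2 fold change was 2.29, and against control 2 alone 0.60, both called, so its size rested on which control was used. With a replicate block it was also called (limma adjusted p = 0.000393), but no label pairs the samples by replicate number, so that call adds no support. It shares 79 exon bases, 1.54% of its exon length, with another annotated gene on the same strand, BX649560.1. Col16a1, the most abundant FACIT gene, is found at the edge of fibrils and near cell surfaces. It had 15569 and 18906 against 19740 and 13480 normalized counts (0.07 ± 0.19, adjusted p = 0.848). Its sign turned without resistant replicate 2 or control replicate 2, and without control replicate 1 its log2 fold change was 0.35. Col14a1 had 389 and 476 against 343 and 212 (0.67 ± 0.25, adjusted p = 0.14). Col12a1 (0.05 ± 0.40) and Col22a1 (-0.65 ± 0.43) had 20.4 to 52.8 normalized counts in all libraries and did not pass, and Col19a1 had 0 reads.

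Col8a1, the chain of a hexagonal lattice found beneath endothelium, and Col6a1 were the most abundant network genes per length, in an order that differed between libraries, and control 2 stood above the other libraries in Col8a1. Col8a1 had 20898 and 15597 normalized counts in resistant cells, 18581 in control 1 and 34639 in control 2 (-0.49 ± 0.28, adjusted p = 0.306). Without control replicate 1 its log2 fold change was -0.94 (adjusted p = 5.95e-12), a call that rests on control 2 alone. Col6a4 (-0.16 ± 0.38) and Col6a5 (-0.52 ± 0.42) did not pass. Col8a2 had 3 to 8 reads, Col10a1, the type X chain of growth-plate cartilage, 0 to 5, and Col28a1 at most 1.

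Transmembrane collagens were nearly absent. Col17a1, a component of the hemidesmosomes that fix epithelial cells to the basement membrane, had 61.1 and 81.5 normalized counts in resistant and 93.2 and 42.4 in control cells (0.16 ± 0.40, adjusted p = 0.837). Col25a1 had at most 4 reads, Col23a1 at most 3 and Col13a1 had 0 reads in all 4 libraries. A count of 0 allows up to 3 reads, or 2.88 to 3.22 normalized counts depending on the library. Col26a1, which belongs to none of the 5 classes, had 1 read in control 1 and 0 elsewhere. In all, 14 members fell under the filter, with means from 0 to 6.03 normalized counts, and 2 of them, Col13a1 and Col19a1, had 0 reads everywhere. At the filter itself, the tested gene with the lowest mean was Col5a2 at 12.4 and the untested one with the highest was Col11a1 at 6.03.

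The machinery that makes and handles collagen was described with a list of 57 genes, 43 of which could be tested. In limma 6 rose and 3 fell, beside 5.32% and 4.73% of all tested genes, and their median log2 fold change was 0.13. Among 13 tested hydroxylases and glycosyltransferases, P4ha1, a catalytic subunit of the prolyl hydroxylase that stabilises the helix, rose from 21189 and 20937 normalized counts in control to 31605 and 30273 in resistant cells (0.55 ± 0.11, adjusted p = 0.0209). Plod2, the lysyl hydroxylase that prepares telopeptides for crosslinking, rose from 6858 and 9184 to 12356 and 12110 (0.62 ± 0.15, adjusted p = 0.0386). P3h2, a prolyl 3-hydroxylase that acts on type IV collagen, fell from 110 and 71.6 to 13.2 and 13.9 normalized counts (-2.62 ± 0.34, adjusted p = 0.00459). That fall was the largest change in the list, and it was called in all 13 alternatives. P4hb, the abundant partner subunit, did not pass (0.04 ± 0.12).

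Of 10 tested genes for folding and export, the endoplasmic reticulum prolyl isomerases Fkbp7 (0.85 ± 0.13, adjusted p = 0.00938) and Fkbp14 (0.77 ± 0.16, adjusted p = 0.0285) rose. Fkbp14 had 4084 and 4571 normalized counts in resistant and 2983 and 2148 in control cells. Ppib, the most abundant of that role, did not pass (-0.15 ± 0.11), nor did the collagen chaperone Serpinh1 (0.07 ± 0.12). No propeptide-cleaving gene of 4 tested passed in limma, and 1 of them, Pcolce2, lay under an unadjusted p of 0.05 (0.36 ± 0.14, limma adjusted p = 0.158). Bmp1, which trims the C-terminal propeptides of fibrillar collagens, had 0.00 ± 0.11. Of 4 tested crosslinking enzymes Loxl4 fell, with 2421 and 2897 against 4774 and 3800 normalized counts (-0.69 ± 0.15, adjusted p = 0.0299), while Loxl3, the most abundant, did not pass (0.14 ± 0.17).

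Among 7 tested receptors, the collagen-binding integrin chain Itga1 rose (0.80 ± 0.18, adjusted p = 0.0323) and Itga10 fell (-1.15 ± 0.20, adjusted p = 0.0145). Itga1 had 363 and 397 normalized counts in resistant and 232 and 204 in control cells, and Itga10 had 755 and 930 against 2269 and 1532. Their shared partner Itgb1 did not pass (0.08 ± 0.12). Of 5 tested proteases the gelatinase Mmp9 rose, with 774 and 981 against 547 and 521 normalized counts (0.71 ± 0.16, adjusted p = 0.0353), and Mmp14 did not pass (-0.09 ± 0.12). All 6 upward calls, and that of Loxl4, ended without resistant replicate 1, without resistant replicate 2 and with no filter on low values. That of Itga10 ended without resistant replicate 1 (adjusted p = 0.0582) and with no filter (adjusted p = 0.0982). With a replicate block P4ha1 (adjusted p = 0.0632) and Itga1 (adjusted p = 0.0683) were not called, and with scaling by total reads Plod2 was not (adjusted p = 0.0535). Without either control library, more genes were called over the whole table as well as in the pathway list.

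**Figure D4:**
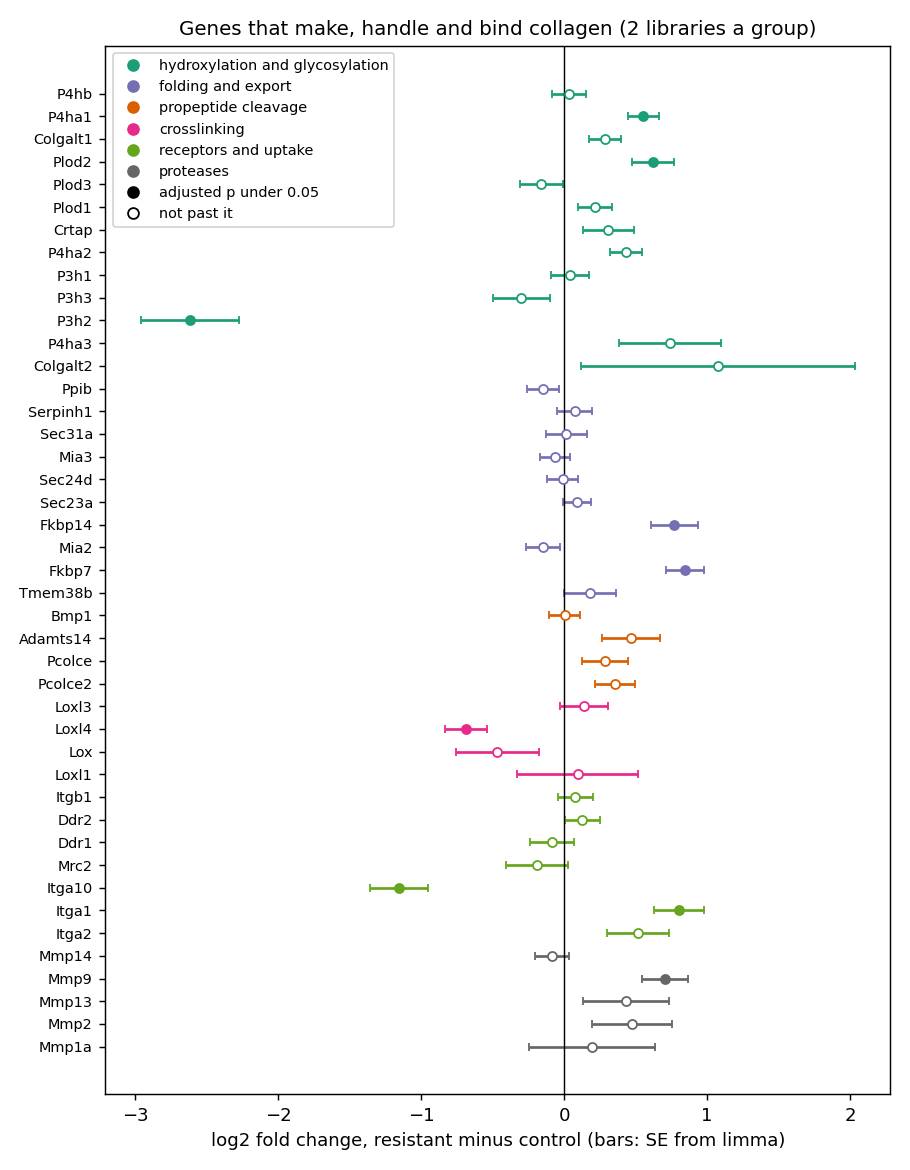
Log2 fold changes, resistant minus control, with standard errors from limma (2 libraries per group) for the 43 tested genes that make, handle, bind or cut collagen, coloured by role. Filled points passed an adjusted p of 0.05: P4ha1, Plod2, Fkbp14, Fkbp7, Itga1 and Mmp9 to the right of 0 and P3h2, Loxl4 and Itga10 to the left.

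Markers of other cell types were set beside these results. In the lists for adipocytes, Schwann cells and skeletal muscle, 1, 2 and 3 genes could be tested and 0 were called. Among them the adipocyte marker Fabp4 had 51.0 and 60.1 normalized counts in resistant and 35.5 and 10.1 in control cells. The muscle marker Myh1 went the other way, at 93.8 and 117 against 306 and 164. The luminal keratins Krt8 and Krt18 and vimentin, Vim, were abundant in every library (Krt18 at 27813 to 42630 and Vim at 124788 to 155221 normalized counts), the basal keratins Krt5 and Krt14 had 0 reads, and Epcam fell from 341 and 246 to 87.6 and 114 (-1.53 ± 0.25, adjusted p = 0.0110). The leukocyte antigen Ptprc and the endothelial cadherin Cdh5 had at most 2.15 and 1.92 normalized counts. Other members of those lists were higher. Cd74, the 1 leukocyte marker tested, had 8564 and 8875 normalized counts in resistant and 5754 and 8109 in control cells. It did not pass (0.35 ± 0.16, limma adjusted p = 0.216). The endothelial marker Pecam1 stood at 12.9 to 21.1. Of 8 markers of pericytes and smooth muscle, 7 could be tested and 3 rose, beside 5.32% of all tested genes. The 3 were Pdgfrb (1.00 ± 0.20), Des (2.08 ± 0.27) and Notch3 (0.93 ± 0.18). The summed level of the 8 was 1242 and 1543 normalized counts in resistant and 733 and 642 in control cells. Most of this sum came from the 3 called genes in every library, so its difference between the groups is not separate from their calls. Among single genes, 28.4% of all tested ones had both resistant libraries above both controls. The other markers did not move as 1 group. Abcc9 lay lower, at 6.11 and 3.22 against 21.1 and 12.1 (-1.64 ± 0.53, adjusted p = 0.0984), and Acta2 higher, at 38.7 and 62.2 against 10.6 and 33.3 (1.33 ± 0.54, adjusted p = 0.169), and neither passed. Rgs5 overlapped between the groups at 95.8 to 145 normalized counts, Myh11 stood at 3.22 to 29.2 and Cspg4 at 3.84 to 8.58. The part of such cells in the collagen values was not tested.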

How the data were processed

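Bulk RNA sequencing of 4 libraries was deposited as 1 table of 55385 genes. Per the submitters' processing notes the authors used STAR, DESeq2 and the mm10 genome, and the deposited values are on a log2 scale, of 1 plus the count over the library's size factor. The scale was read from the values: after undoing the log, 100% of values in each library were whole multiples of 1 read within 0.01 reads, which gave the counted reads. Versions, strand and counting settings are not given in the sources used here.

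Columns were matched to samples by title. Identifiers without their version were joined to GENCODE M21 (GRCm38, which is mm10) for 55144 genes. RPKM used the union of GENCODE exons. RefSeq promoters matched 35 of the 44 members.

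Genes whose mean normalized count reached 10 entered a linear model in limma 3.58.1 under R 4.3.3 (eBayes with a trend, no block, pseudocount 1, Benjamini-Hochberg at 0.05). Fold changes on that scale understate changes of low genes. The fit was tried on simulated counts with the same dispersion for all genes, which does not cover genes that differ strongly between the control libraries. The design had assumed unlogged values, and the transformation is the one it planned. Alternatives were pseudocounts of 0.5 and 8, no filter or a mean of 50, 2 other scalings, robust moderation, voom on recovered reads, a replicate block and leaving out each library, which leaves a lone library assumed to vary like the other group.

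The rule for members reads gene symbols only, but collagens as the subject, the gene lists and the tests were chosen with earlier results of these data known. Every tested collagen gene was named, with all called pathway genes and the most abundant uncalled one per role. Serpinh1 and Pcolce2, outside that rule, were named after their values were seen. Replicate numbers do not pair the samples by any label.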

Additional observations from a re-analysis of the deposited data

How the results depend on the processing

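Without a filter, calls over the whole table were 126 higher and 185 lower, with 2 and 0 among collagen genes (Col5a1 and Col6a3; 9 and 2 at an unadjusted p under 0.05 in limma) and 0 and 1 among pathway genes (9 and 4 at an unadjusted p under 0.05). The fall of Col4a1 was lost, leaving 0 collagen genes lower, with a pseudocount of 8, a mean of at least 50 and scaling by the upper quartile. The replicate block gave 628 and 585 genes, 6 and 1 collagen genes, with Col20a1 added and Col1a2 in place of Col4a1, and 4 and 3 pathway genes. Deviations of same-numbered libraries correlated at -0.357 over the tested genes, so a crossed replicate block was added after seeing the data. It gave 2402 and 2182 genes, 10 and 6 collagen genes and 13 and 3 pathway genes. Because that pairing was picked to reverse the sign of the correlation, more calls over the whole table were built in. Its numbers therefore add no support to any call.

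Leaving out each library in turn, calls ranged from 146 to 2074 higher and 234 to 1993 lower over all genes, 2 to 11 and 0 to 5 among collagen genes, and 0 to 16 and 1 to 6 among pathway genes. Without Col18a1, which itself lay higher in resistant cells, collagen genes took 0.284% of the reads in resistant and 0.322% in control cells. The groups then no longer overlapped, as in 56.7% of all tested genes taken singly. Scaling by total counted reads turned P4hb to -0.0048 and Bmp1 to -0.037, and the upper quartile turned Bmp1 to -0.0079. Leaving out libraries, signs turned for Bmp1 (-0.056 to 0.064), Col11a2 (-0.25 to 0.91), Col12a1 (-0.44 to 0.54), Col16a1 (-0.20 to 0.35), Col17a1 (-0.40 to 0.72), Col1a1 (-0.99 to 1.40), Col1a2 (-5.25 to 0.061), Col24a1 (-0.33 to 0.040), Col5a2 (-4.56 to 1.03), Col5a3 (-0.12 to 0.47), Col6a1 (-0.093 to 0.21), Col6a4 (-0.53 to 0.21), Col9a1 (-0.14 to 0.70), Col9a3 (-0.17 to 0.15), Itgb1 (-0.0062 to 0.16) and Loxl3 (-0.080 to 0.36). None of the called collagen and pathway genes changed sign. With 2 libraries a group and the lowest members at a few reads, fold changes of Col1a2, Col5a2 and Col9a2 rest on few counts.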

Other observations

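Across the whole table, Col1a2 and Col5a2 were the only genes with at least 20 reads in 1 library and at most 2 in each of the others, with 76 and 47 reads in control 2. These limits were chosen after the values were seen. With at least 10 reads in 1 library and the same limit elsewhere, 9 genes qualified in control 2, against 1 in resistant 1, 0 in resistant 2 and 3 in control 1. The 9 were Col1a2, Col5a2, the aggrecanase Adamts5, the guidance ligand Slit3, Col3a1, the lipase Lpl, the fibroblast surface protein Thy1, Gm37986 and Gm3629.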
